A study of Triticum aestivum with 4 samples.

Results

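Of 61056 probe sets on the wheat array, 19 (0.0311%) gave a signal below 69 on both control arrays and of at least 500 on both heat arrays. They were chosen on the signals of these same arrays, after leaving out the AFFX and RPTR controls and the 59 probe sets of a large cluster that includes probe sets assigned to rbcL, so their values for heat against control are a description and carry no test. The RNA came from flag leaves of wheat (Triticum aestivum, cultivar TAM 107) on 2 arrays from plants held for 1 h at 40 °C and 2 arrays from control plants under normal growth conditions. All plants had been grown in the field, potted about a week before flowering, and sampled about 10 days after pollination. Heat was given by a move to a growth chamber. Whether control plants were moved as well is not stated, so the chamber and the temperature cannot be told apart. It is also not stated whether separate plants were used for the 2 arrays of each group, and the spread between them may be technical.

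The flag leaf is the uppermost leaf and a main supplier of sugars to the filling grain. In plants, as in other organisms, a sudden rise in temperature frees heat shock transcription factors to bind promoters, and the transcripts they drive, many of which encode chaperones, can accumulate within minutes from very low levels. Other transcripts that are scarce in unstressed leaves respond to heat through calcium, hormone or oxidative signals.

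The platform annotation used here gives a gene symbol to 1273 probe sets (2.08%), and to 0 of the 19, so each is given below by its probe set identifier with no gene name or role. A probe set stands for a transcript cluster. Identifiers that begin with Ta or TaAffx come from different clusterings of wheat sequences, and the letter S or A before the suffix gives the orientation of the target. The endings _a_at, _s_at and _x_at mark probe sets whose probes may hit more than a single transcript. Wheat is hexaploid, and a probe set can report nearly identical gene copies together.

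The deposited values are linear MAS5 signals, scaled so that the trimmed mean (lowest and highest 2% dropped) was 500.1 on each array. The median signal was 77.0 and 72.1 on the heat arrays and 82.7 and 79.1 on the control arrays. Replicates correlated at r = 0.977 (heat) and 0.979 (control) on the log2 scale across 30558 probe sets, which are not independent. Leaf markers with a name were bright in both groups, with summed signals of 336374 to 343549 in heat and 261431 to 281649 in control over 34 probe sets, of which 12 were below 69 on all arrays. The leaf list includes rbcL, and the cluster left out of the selection was not left out of these sums. Grain and seed markers summed to 8677 to 8845 in heat and 8746 to 8888 in control over 18 probe sets, 11 of them below 69 on all arrays. In a limma fit across the 30558 probe sets bright enough to test, 14.2% were called higher and 22.9% lower in heat (adjusted p below 0.05). Of the leaf probe sets, 18 were tested, with 6 called higher and 7 lower, and of the grain probe sets 4 were tested, with 0 calls and 0 at an unadjusted p below 0.05. No flower or pollen marker has a name in the annotation. The part of these markers in the results below was not tested.

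Over the 19 probe sets, the mean heat signal ran from 533 to 4872 with a median of 1136, and the mean control signal from 10.0 to 57.8 with a median of 34.4. Within the array, their median rank was at percentile 87.5 on heat replicate 1 and 87.4 on heat replicate 2, and at percentile 28.1 on control replicate 1 and 35.2 on control replicate 2. The lowest rank on a heat array was percentile 79.2, and the highest rank on a control array was percentile 47.0. The median log2 difference, heat minus control, was 5.42 (3.61 to 8.25), beside -0.15 over all 30558 tested probe sets. With control signals raised to 69 the median was 4.04, so the size of the difference rests on how dim control values are read. In these whole leaves, more cells with a transcript and more RNA per cell cannot be told apart.

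**Figure D1:**
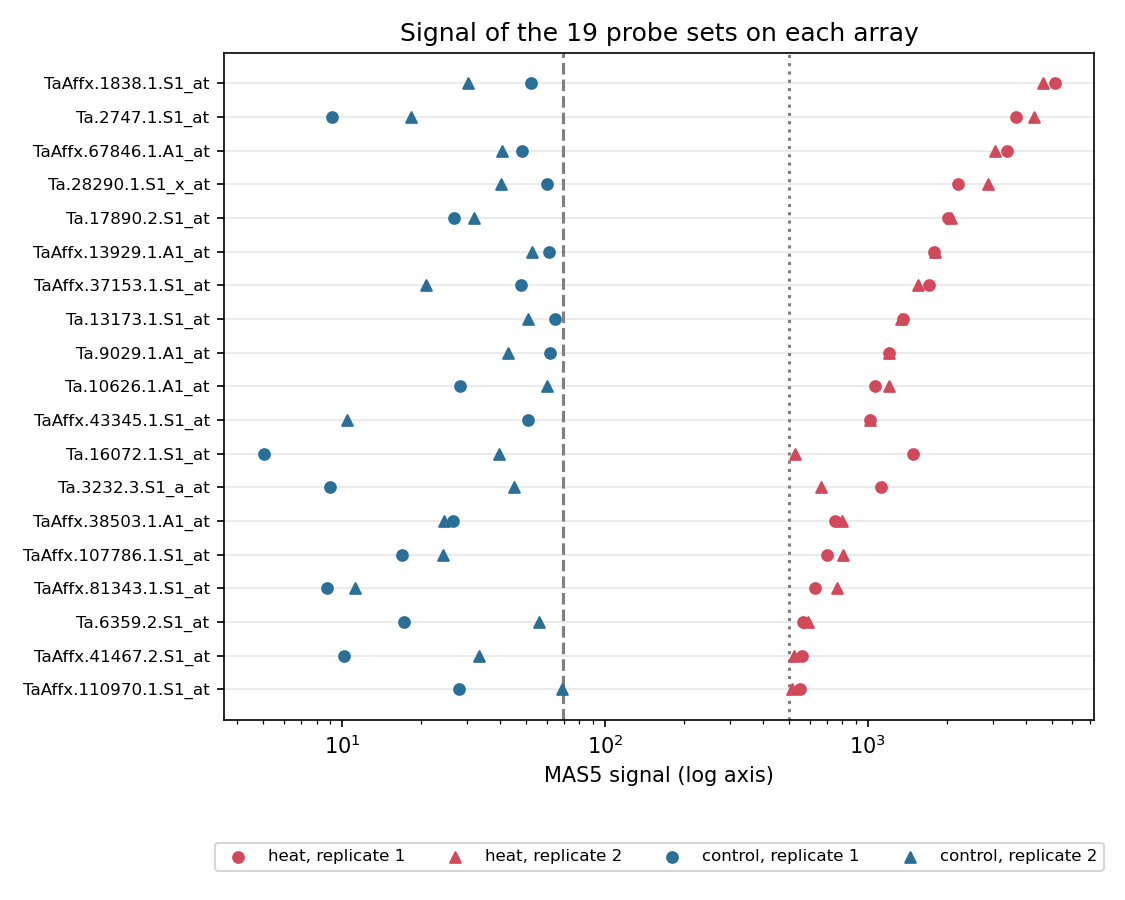
MAS5 signal (log axis) of each of the 19 probe sets on the 2 heat arrays (red) and the 2 control arrays (blue); circles are replicate 1 and triangles replicate 2. The dashed line is the control ceiling of 69 and the dotted line the heat floor of 500, and the probe sets run from the highest mean heat signal (TaAffx.1838.1.S1_at, 4872) to the lowest (TaAffx.110970.1.S1_at, 533).

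Control levels this low have uncertain ratios. No detection calls were used, so a probe set below 69 is called dim here and not absent, and whether these transcripts were switched on from background cannot be checked further than that. Of all 61056 probe sets, 25612 (41.9%) were below 69 on both control arrays. The control arrays of a member differed by a median factor of 1.74 (1.08 to 7.84), near the 1.87 of all probe sets dim on both. The heat arrays of a member differed by a factor of 1.00 to 2.81, within 1.2-fold in 15 of the 19. On the log2 scale the heat arrays were a median of 0.14 apart over the 19. Over the 12399 probe sets at or above 500 on both heat arrays, a set not matched to the 19 in signal, the median was 0.09. The level in heat is therefore given for each member, with the lower heat value divided by 69 as a cautious ratio. That ratio ran from 7.43 to 66.9 with a median of 15.5.

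Of the 19, 5 reached at least 2000 on both heat arrays. TaAffx.1838.1.S1_at had the highest heat signals, 5127 and 4616 in heat against 52.3 and 30.1 in control. Its lower heat value was 66.9 times the ceiling, and it ranked at percentiles 96.1 and 95.7 of the heat arrays. Ta.2747.1.S1_at had 3666 and 4286 in heat against 9.20 and 18.3 in control. It was dimmer in control than any other of these 5 on both control arrays, and its log2 difference was 8.25. With control signals raised to 69 that difference was 5.84, below the 6.14 of TaAffx.1838.1.S1_at, so its size depends on very dim control values.

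TaAffx.67846.1.A1_at had 3378 and 3051 in heat against 48.4 and 40.8 in control. Its control arrays lay close together, and the log2 difference was 6.17. Ta.28290.1.S1_x_at had 2206 and 2872 in heat against 60.3 and 40.2 in control, with heat arrays 1.30-fold apart. Ta.17890.2.S1_at had 2011 and 2071 in heat against 26.6 and 31.8 in control, so that both groups were tight and its log2 difference was 6.13.

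A further 6 reached at least 1000 but not 2000 on both heat arrays. TaAffx.13929.1.A1_at had 1790 and 1795 in heat against 61.3 and 52.8 in control. TaAffx.37153.1.S1_at had 1711 and 1554 in heat against 47.9 and 20.9 in control. Both were within 1.2-fold between the heat arrays, but the second was 2.29-fold apart between the control arrays. Ta.13173.1.S1_at had 1362 and 1333 in heat against 64.5 and 51.1 in control. Ta.9029.1.A1_at had 1199 and 1206 in heat against 62.0 and 42.7 in control. These lay near the control ceiling, and their log2 differences were alike at 4.55 each.

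Ta.10626.1.A1_at had 1069 and 1203 in heat against 28.2 and 60.5 in control. TaAffx.43345.1.S1_at had 1018 and 1019 in heat against 51.2 and 10.4 in control. Its heat arrays were the closest of the 19, at a ratio of 1.00, while its control arrays were 4.91-fold apart, so its fold depends on the control array used. Close agreement between arrays that may be technical does not show how well the level in heat was measured.

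The other 8 lay between 500 and 1000 on the lower heat array. Ta.16072.1.S1_at had 1479 and 527 in heat against 5.04 and 39.5 in control. It had the largest spread of the 19 in both groups, with heat arrays 2.81-fold and control arrays 7.84-fold apart, and only heat replicate 1 was well above the floor. Ta.3232.3.S1_a_at had 1120 and 662 in heat against 8.98 and 45.0 in control, 1.69-fold and 5.01-fold apart. These 2 were the only members whose heat arrays were more than 1.5-fold apart.

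TaAffx.38503.1.A1_at had 752 and 795 in heat against 26.4 and 24.4 in control, the tightest control pair of the 19 (1.08-fold apart). TaAffx.107786.1.S1_at had 699 and 803 in heat against 16.9 and 24.3 in control. TaAffx.81343.1.S1_at had 630 and 764 in heat against 8.79 and 11.2 in control. It had the lowest mean control signal of the 19, 10.0 ± 1.71 (SD, n = 2), and a mean of 697 ± 94.6 (SD, n = 2) in heat. In these 3, all control values were below 35, as they were in 6 of the 19.

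The 3 members with the lowest mean heat signal came close to the floor. Ta.6359.2.S1_at had 568 and 590 in heat against 17.2 and 56.2 in control. TaAffx.41467.2.S1_at had 562 and 524 in heat against 10.2 and 33.1 in control. In both, control replicate 2 was over 3 times as bright as replicate 1 (3.26-fold and 3.25-fold). TaAffx.110970.1.S1_at had 553 and 513 in heat against 27.9 and 68.6 in control, and its log2 difference of 3.61 was the smallest of the 19. Neither replicate was regularly the brighter: heat replicate 1 was the higher heat array in 8 of the 19, and control replicate 1 was the higher control array in 9.

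In the limma fit, which called 14.2% of all tested probe sets higher in heat, all 19 were tested and called higher; the selection used this same contrast, and nothing is read from that count.

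The thresholds cut through a continuous range. Just inside the heat floor stood TaAffx.110970.1.S1_at, TaAffx.41467.2.S1_at and Ta.16072.1.S1_at, with lower heat values of 513, 524 and 527. Just outside stood Ta.5757.1.S1_at, with 557 and 498 in heat against 4.80 and 5.24 in control. It missed the floor on heat replicate 2 only. TaAffx.52385.2.S1_x_at (617 and 484 in heat against 60.5 and 14.6 in control) and TaAffx.6564.1.S1_at (455 and 524 in heat against 26.8 and 23.4 in control) missed the floor on a single array.

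At the control ceiling, the nearest inside were TaAffx.110970.1.S1_at, Ta.13173.1.S1_at and Ta.9029.1.A1_at, with higher control values of 68.6, 64.5 and 62.0. The nearest outside were Ta.5878.1.S1_at (1151 and 1177 in heat against 73.2 and 37.3 in control), TaAffx.52385.2.S1_s_at (1070 and 1128 in heat against 74.6 and 56.2 in control) and Ta.19041.1.S1_at (1964 and 2058 in heat against 77.8 and 65.7 in control). In each of these 3, a single control array was above the ceiling.

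**Figure D2:**
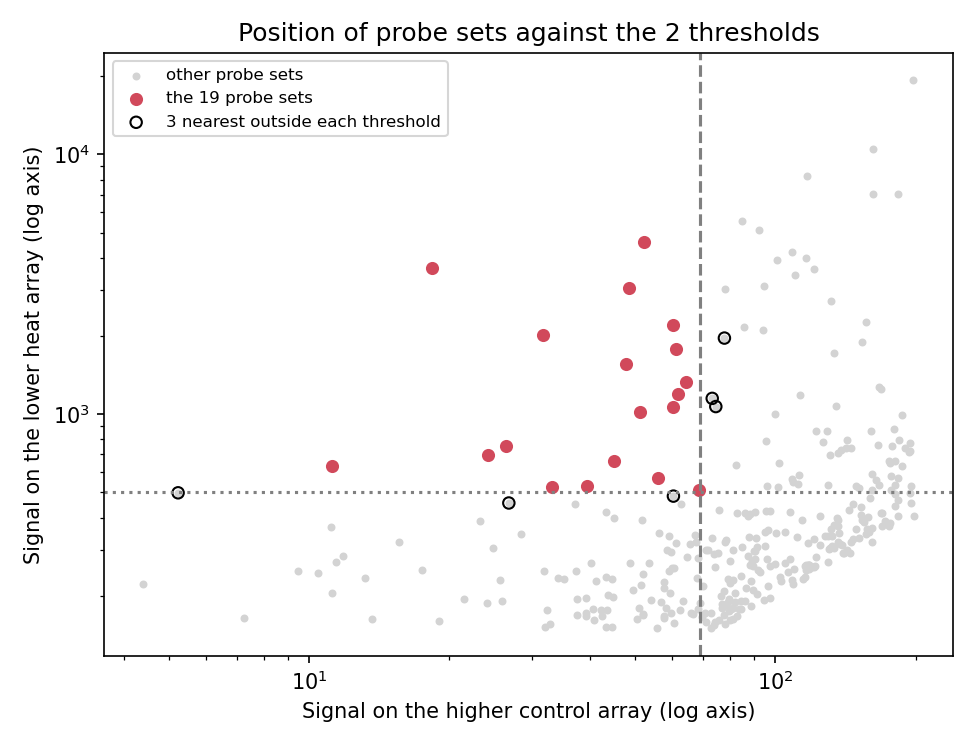
Signal on the lower heat array against signal on the higher control array (both log axes) for probe sets near the thresholds. Red points are the 19 selected and open circles the 3 nearest outside each threshold. Grey points are other probe sets with a lower heat signal of at least 150 and a higher control signal below 200. Probe sets that rose little, stayed level or fell in heat are not drawn. The dashed line is the ceiling of 69 and the dotted line the floor of 500, and points continue on the far side of both lines with no gap.

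The 19 probe sets belong to 19 different clusters. In 13 of them (68.4%) the member was the only probe set of its cluster on the array, beside 70.8% of the probe sets dim on both control arrays and 60.3% of all. The other 6 clusters hold 8 further probe sets, of which 5 were called higher. Of the other 3, 2 were too dim to test (Ta.17890.1.S1_at and Ta.3232.3.S1_at). A probe set can pass that filter through its heat signal alone, so the count is not read against the share over all tested probe sets. Probe sets of a cluster can share probes, so these are not independent measurements.

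In 2 clusters the second probe set, of the same transcript number, was as bright in heat as the member and missed only the control ceiling. TaAffx.1838.1.S1_x_at had 5806 and 5521 in heat against 84.8 and 47.9 in control. Ta.28290.1.S1_at had 2160 and 2618 in heat against 40.3 and 85.5 in control. Its heat replicate 2 was again above replicate 1, as in the member Ta.28290.1.S1_x_at. In the cluster Ta.6359, the probe set Ta.6359.2.S1_x_at was dimmer than its member, with 386 and 306 in heat against 24.8 and 8.86 in control.

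In the cluster of TaAffx.38503.1.A1_at, a member with the A orientation, both other probe sets have the S orientation and other transcript numbers. TaAffx.38503.2.S1_at had 2358 and 2496 in heat against 183 and 212 in control, and TaAffx.38503.3.S1_at had 281 and 264 in heat against 70.2 and 118 in control. Both were called higher, and both were above the control ceiling on each control array, unlike the member.

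The other 2 clusters held probe sets that did not move with the member. Ta.17890.1.S1_at had 65.4 and 9.98 in heat against 72.2 and 72.4 in control, while Ta.17890.2.S1_at was near 2000 in heat. Ta.3232.3.S1_at, of the same transcript number as the member Ta.3232.3.S1_a_at, was the dimmest of these 8, with 8.46 and 3.06 in heat against 10.7 and 3.98 in control. Ta.3232.1.S1_a_at had 82.4 and 68.7 in heat against 70.6 and 85.5 in control. Within this cluster the heat signal was therefore seen on the member alone, the same probe set whose heat replicates were 1.69-fold apart.

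**Figure D3:**
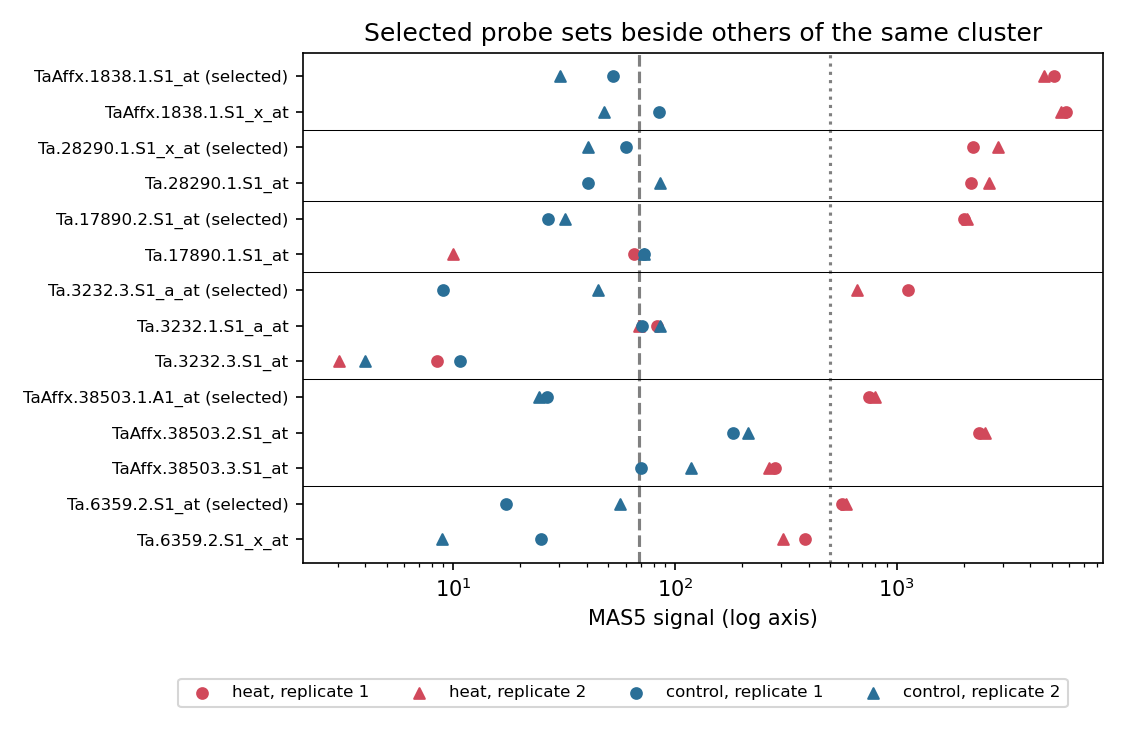
MAS5 signal (log axis) of the 6 members that share a cluster with other probe sets (marked as selected), above those other probe sets; heat arrays are red and control arrays blue, circles replicate 1 and triangles replicate 2. The partner probe sets lie near the member in the clusters TaAffx.1838 and Ta.28290, and near or below 100 on all 4 arrays in Ta.17890 and Ta.3232.

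By name features, 5 of the 19 (26.3%) had the A orientation, beside 14.6% of the probe sets dim on both control arrays and 17.4% of all. The TaAffx prefix was on 10 (52.6%), beside 63.4% and 48.5%. Of the endings that mark possible matches to several transcripts, _s_at was on 0, _x_at on 1 (Ta.28290.1.S1_x_at) and _a_at on 1 (Ta.3232.3.S1_a_at). Those endings were on 2.38%, 7.02% and 1.52% of the probe sets dim on both control arrays, and on 4.28%, 11.1% and 5.44% of all. With 19 members, a difference of a few probe sets makes these shares move widely, and nothing particular to the group is read from them.

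Most probe sets dim on the control arrays stayed dim: 22412 of the 25612 (87.5%) were below 69 on both heat arrays as well. Among the 25612, 757 (2.96%) were at or above 69 on both heat arrays, 261 at or above 100, 51 at or above 250 and 19 at or above 500. In the reverse direction, 26326 probe sets were below 69 on both heat arrays, and of these 1244 (4.73%) were at or above 69 on both control arrays, 419 at or above 100, 24 at or above 250 and 6 at or above 500. At levels up to 150 the reverse pattern thus held more probe sets, and from a level of 200 upward more were bright in heat and dim in control (72 against 50 at 200). Below 200 the order depended on the scaling: at 69, quantile normalization gave 939 against 1006, median centring 955 against 1002 and cyclic loess 886 against 856. From 200 upward the first count was the larger at each level examined under all 4 scalings. The counts are nested: a probe set counted at a high level is counted again at each lower level, the selected 19 included. The scalings use the same arrays, so neither levels nor scalings are independent counts. Only 1 probe set was below 69 on a heat array and at or above 500 on the other, and 1 likewise between the control arrays.

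**Figure D4:**
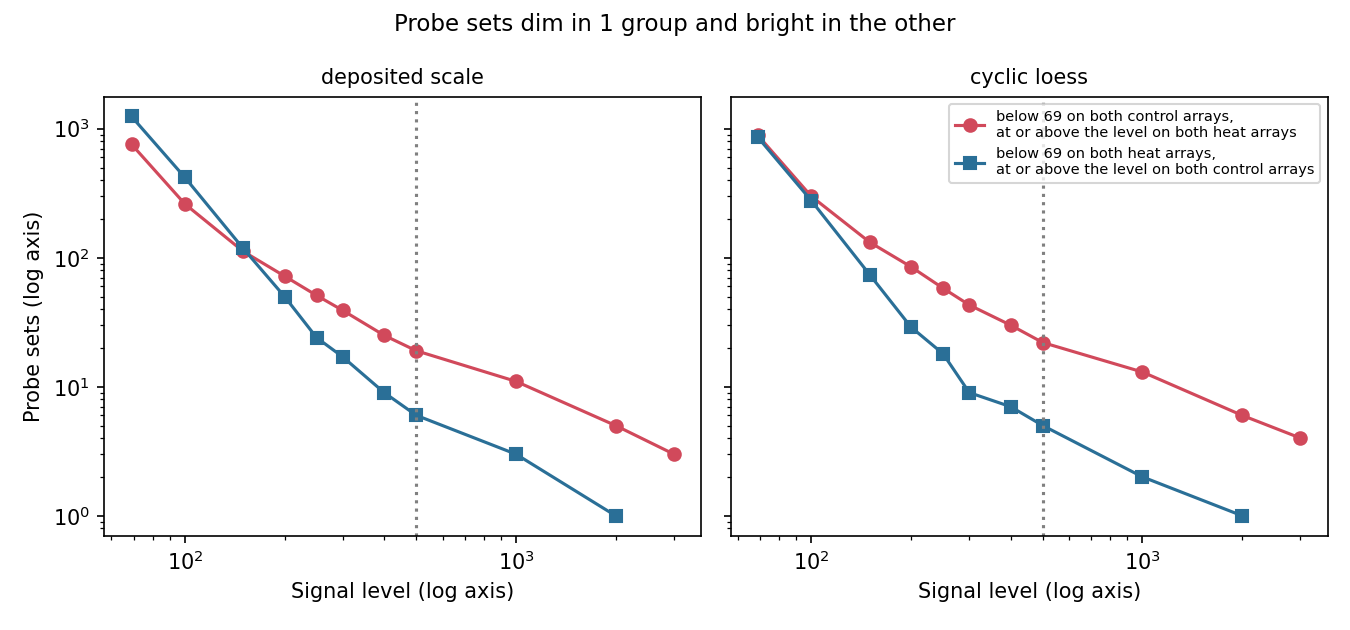
Number of probe sets (log axis) that were below 69 on both arrays of a group and at or above a signal level (log axis) on both arrays of the other group, on the deposited scale and after cyclic loess. Red is dim in control and bright in heat, blue the reverse, the dotted line marks 500 (19 and 6 on the deposited scale), and the blue count of 0 at 3000 is not drawn.

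Another 132 probe sets started from a higher control level, being at or above 69 on both control arrays and at least 8-fold higher on both heat arrays. The mean heat signal of the 19 ran from 533 to 4872, and that of the 132 from 803 to 51694. The ranges overlapped, and the medians were 1136 for the 19 and 12928 for the 132. The median log2 difference was 5.42 for the 19 and 4.37 for the 132. With control signals raised to 69 that of the 19 was 4.04, so the order of these medians depends on how dim control values are read. Both sets were cut by rules on these same heat and control signals, so gaps between them follow in part from the rules. Their probes differ as well, and the values are given side by side with no comparison. The gene hsp16.9A, which encodes a small chaperone that holds unfolding proteins, is no member, with 19520 and 19269 in heat against 197 and 189 in control.

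Of the 13 pathway lists, 4 had a named gene in the annotation and 0 of their probe sets were among the 19, as none of the 19 has a name. The other lists, among them HSP70, HSP90 and heat shock transcription factors, had no named probe set. They could not be examined here, whether or not the array carries probes for them. The lists of small heat shock proteins and of co-chaperones held 1 probe set each, both called higher. The list of ascorbate, glutathione and peroxidase enzymes had 1 of 8 tested probe sets higher and 2 lower, near the shares over all tested probe sets (14.2% and 22.9%), and the list of ubiquitin and proteasome genes 0 of 3 in either direction, with 0 also at an unadjusted p below 0.05. Of the 1273 probe sets with a gene symbol, 337 were below 69 on both control arrays, and 13 of these were at or above 69 on both heat arrays. The brightest of them in heat, TaAffx.51843.1.S1_at, assigned to a gene with only a LOC number, had 256 and 280 in heat against 24.3 and 60.1 in control, below the floor.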

How the data were processed

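The series holds 4 single-colour Affymetrix arrays, 2 heat and 2 control. The intensities deposited by the authors are linear MAS5 signals, made with Affymetrix Expression Console 1.1 per the submitters' processing notes, with settings not given in the sources used here. From 61290 probe sets, 111 AFFX and 64 RPTR controls were left out. The selection was applied to the deposited intensities with no further scaling; 0 of the 59 probe sets of the cluster left out and 0 of the controls met its signal thresholds. Log2 signals of the 30558 probe sets with a mean log2 of at least 6.11 (the median, a signal of 69.2) were fitted with limma 3.58.1 in R 4.3.3 (heat minus control by lmFit; eBayes, trend by intensity; two-sided tests, Benjamini-Hochberg, 0.05), with 2 residual and 5.45 prior degrees of freedom; the fit was tested on simulated data. With 2 arrays in each group, the smallest two-sided p of an exact permutation test is 0.333.

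The members, lists and thresholds were chosen with earlier results of these data known. Named probe sets were the 12 brightest in heat by mean and by lower array, the 5 dimmest, and the 3 nearest each threshold on either side; the 1 member outside these parts, Ta.3232.3.S1_a_at, and further probe sets of members' clusters were added after their values were seen. Gene symbols came from the platform annotation, whose gene IDs matched a RefSeq table (assembly IWGSC CS RefSeq v2.1) for 770 genes. Planned promoter motifs were not analysed here. Alternatives were 3 other scalings, other filters, an offset, no intensity trend, a replicate block, other thresholds and leaving out each array. Arrays have no counting depth; their number limits the precision.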

Additional observations from a re-analysis of the deposited data

How the results depend on the processing

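The 19 probe sets met the selection under quantile normalization, median centring and cyclic loess, each of which added 3 (22 in all). The number met depended on the thresholds: 10 with a control ceiling of 50, 31 with a ceiling of 100, 51 with a heat floor of 250 and 11 with a floor of 1000, by construction. Leaving out an array gave 21 to 30 members, since fewer arrays had to pass, with 30 without control replicate 1. The reverse pattern, whose alternatives were chosen after seeing the data, held 6 probe sets, 5 under each other scaling and 7 to 9 without an array. The median log2 difference was 5.42 (5.51 to 5.62 under the other scalings), 3.50 with an offset of 64, and 4.04 with control signals raised to 69. It was 4.98 to 5.46 without an array, the lowest without control replicate 1. Calls of the members are listed with no reading, since the selection used this same contrast. Over all tested probe sets, the share called higher ran from 6.42% (no filter) to 24.3% (stricter filter on dim probe sets). All 19 were called higher in each fit that tested all of them. With the stricter filter on dim probe sets 2 were tested and called, and without an array 14 to 19, the lowest without heat replicate 1 because fewer passed the filter. Over all probe sets 4337 were called higher; the alternatives gave 2911 (no intensity trend) to 5078 (cyclic loess), 3498 to 3842 without an array, and 4458 with the replicate number as a block. Same-numbered arrays deviated with a correlation of 0.012. That value rests on a single difference between arrays in each group, so it cannot show whether the numbers mark pairs. The main fit did not take them as pairs.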

Other observations

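The reverse pattern, below 69 on both heat arrays and at or above 500 on both control arrays, was met by 6 probe sets, given here by identifier only. Ta.4360.1.A1_at was the brightest in control, with 35.2 and 17.2 in heat against 2803 and 2829 in control. TaAffx.50270.1.S1_at had 56.8 and 49.2 in heat against 1199 and 1182 in control. Both probe sets of the cluster Ta.29534 were among the 6: Ta.29534.1.S1_x_at had 57.3 and 26.8 in heat against 1016 and 1073 in control, and Ta.29534.1.S1_at had 36.0 and 30.5 in heat against 739 and 742 in control. TaAffx.54121.1.S1_x_at had 9.80 and 23.4 in heat against 955 and 836 in control, and Ta.30837.1.S1_at had 49.9 and 25.1 in heat against 513 and 549 in control.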
